A study of Homo sapiens with 30 samples.

Results

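The genes described here are 10 transcriptional targets of the RAS to ERK signalling cascade that are widely used as readouts of its activity, DUSP4, DUSP5, DUSP6, SPRY1, SPRY2, SPRY4, SPRED1, SPRED2, ETV4 and ETV5. They were chosen by symbol, from knowledge of the pathway but with earlier results of these data known, out of 25680 gene symbols. Each was represented by its transcript with the highest mean count. RNA was measured in 4 groups of 3 libraries each: H929 cells after 24 h with 100 nM dBRD9-A, H929 cells with DMSO, OPM2 cells with the same dose and time of dBRD9-A, and OPM2 cells with DMSO. DMSO is the solvent, and dBRD9-A is a small molecule that degrades BRD9, a bromodomain protein of a chromatin remodelling complex, non-canonical BAF. Because the compound acts on the protein, the level of the BRD9 transcript does not check the treatment. H929 and OPM2 are established multiple myeloma lines, so each genotype is represented by 1 line. Both carry the 4;14 translocation, which places FGFR3, a receptor tyrosine kinase, under an immunoglobulin enhancer. OPM2 is known for an activating mutation of FGFR3 and H929 for one of NRAS. The labels name replicates without saying whether they were grown apart, so each p-value reflects only how much these libraries vary, a spread that may be technical.

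As background, a growth factor receptor or a mutated RAS protein switches on the kinases RAF, MEK and ERK in turn, and active ERK induces genes whose products turn the signal down again. The dual-specificity phosphatases encoded by DUSP4, DUSP5 and DUSP6 remove phosphate from ERK itself, DUSP4 and DUSP5 in the nucleus and DUSP6 in the cytoplasm. The Sprouty proteins (SPRY1, SPRY2, SPRY4) and the related SPRED proteins (SPRED1, SPRED2) act upstream, and SPRED1 recruits neurofibromin, the RAS-inactivating protein, to the membrane. ETV4 and ETV5 are ETS family transcription factors of the PEA3 group that act downstream of ERK, and CIC is a repressor of ETV4, ETV5, DUSP6, SPRY4 and related genes that ERK signalling relieves.

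All 12 libraries held between 24524193 and 76600945 counts over 1 transcript per symbol. OPM2 dBRD9-A replicate 2 had the fewest counts and stood apart. Across 11467 genes, its log2 deviations from its mates had an SD of 0.896. The SD was 0.44 and 0.503 for its mates and 0.149 to 0.259 for the libraries of the other groups. Each library was set against the mean of the others in its group, so the values of the mates include replicate 2. The deviation of replicate 2 went with the GC content of the transcript (Spearman -0.678 across 10984 genes of that library, which are not independent replicates). Results that it touches are therefore given with and without it, and it also enters the other comparisons through the spread that all groups share. The 8 plasma cell markers examined, such as SDC1 and XBP1, were each at a mean of 1 CPM or more in every group (CPM, counts scaled to a common library size), and summed to 5549 to 5886 CPM in H929 with dBRD9-A, 6415 to 7142 CPM in H929 with DMSO, 4224 to 5574 CPM in OPM2 with dBRD9-A and 5238 to 6061 CPM in OPM2 with DMSO. Of 8 markers listed for other cell types, 4 reached a mean of 1 CPM in H929 with dBRD9-A (CD3E, COL1A1, PECAM1 and PTPRC). There were 3 in H929 with DMSO (the same without COL1A1) and 2 in each OPM2 group (HBB and PECAM1). PTPRC was listed as a marker of leukocytes, a class that includes plasma cells, so it does not by itself mark another cell type. The 8 summed to 69.8 to 88.1 CPM in H929 with dBRD9-A, 55.2 to 63.4 CPM in H929 with DMSO, 5.55 to 6.39 CPM in OPM2 with dBRD9-A and 8.06 to 8.56 CPM in OPM2 with DMSO, and their part in the results was not tested. In bulk RNA a lower level cannot be told apart from fewer cells that express the gene.

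The first comparison asked how high the feedback genes stood in the lines without the compound. In DMSO the phosphatase gene and the Sprouty gene with the highest mRNA level differed between the lines. H929 had more DUSP5, DUSP6, SPRY4 and ETV4, and OPM2 had more DUSP4 and SPRY1. The differences of these 6 genes ranged from 4.33-fold to 13.4-fold, and SPRED1, SPRED2, SPRY2 and ETV5 stayed under 2-fold. A gene was called here at an adjusted p under 0.05 (edgeR quasi-likelihood test, Benjamini-Hochberg over 16408 genes) and a difference of 2-fold or more (a log2 fold change of 1 or beyond in either direction). Of the 10 members 6 were called, 4 higher and 2 lower in H929, while 36.3% of all genes tested were called, 21.4% higher and 15.0% lower. The members' count is to be read against that share.

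Among the phosphatases, DUSP5 had 714.5, 839.9 and 756.7 CPM in H929 with DMSO, against 61.7, 53.5 and 58.9 CPM in OPM2 with DMSO (log2 fold change 3.73 ± 0.17 SE, adjusted p = 2.85e-09). Every H929 library lay more than 10-fold above every OPM2 library. DUSP4 showed the opposite, with 81.4, 92.1 and 83.1 CPM in H929 with DMSO, against 433.2, 400.5 and 422 CPM in OPM2 with DMSO (-2.29 ± 0.11, adjusted p = 5.26e-09). The H929 libraries were all low for this gene and the groups did not overlap. DUSP6, the cytoplasmic ERK phosphatase that is often used as a direct readout of ERK activity, had 175.4, 140.7 and 181 CPM in H929 with DMSO, against 36.8, 37.5 and 40.4 CPM in OPM2 with DMSO (2.12 ± 0.16, adjusted p = 2e-07). Here again every H929 library was above every OPM2 library.

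Of the Sprouty genes, SPRY4 had 18.6, 15.5 and 20.3 CPM in H929 with DMSO, against 1.57, 2.19 and 1.19 CPM in OPM2 with DMSO (3.46 ± 0.27, adjusted p = 2.75e-07). The OPM2 values rest on 92 to 160 counts per library. SPRY1 stood the other way round, at 2.81, 2.62 and 2.75 CPM in H929 with DMSO, against 36.8, 38 and 35.1 CPM in OPM2 with DMSO (-3.75 ± 0.18, adjusted p = 4.52e-09). So the Sprouty gene that was high in one line was low in the other. SPRY2 was low in both, with 2.48, 3.61 and 2.87 CPM in H929 with DMSO, against 6.24, 5.77 and 4.24 CPM in OPM2 with DMSO. Its log2 fold change was -0.86 ± 0.20 with adjusted p = 0.00252, which passed the test but not the 2-fold threshold. It passed both without OPM2 DMSO replicate 3 (-1.004) or without H929 DMSO replicate 2 (-1.04).

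The SPRED genes differed least. SPRED1 had 24.8, 29.6 and 28.1 CPM in H929 with DMSO, against 30.2, 36.6 and 33.8 CPM in OPM2 with DMSO (-0.28 ± 0.23, 95% interval -0.79 to 0.22, adjusted p = 0.314). SPRED2 had 29.3, 26.5 and 31.7 CPM in H929 with DMSO, against 43.9, 43.7 and 40.7 CPM in OPM2 with DMSO (-0.55 ± 0.16, adjusted p = 0.00888). Both stood a little lower in every H929 library than in any OPM2 library.

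The PEA3 factors divided. ETV4 had 60.7, 52.6 and 56 CPM in H929 with DMSO, against 7.59, 9.39 and 4.56 CPM in OPM2 with DMSO (2.98 ± 0.22, adjusted p = 2.12e-07). ETV5 had 74, 49.3 and 75.5 CPM in H929 with DMSO, against 41.5, 37 and 40.1 CPM in OPM2 with DMSO (0.75 ± 0.20, adjusted p = 0.0063). ETV5 thus passed the test without reaching a 2-fold difference, and 1 H929 library was close to the OPM2 libraries. On the adjusted p alone, 9 of the 10 members passed, all but SPRED1, and 60.2% of all genes did. For all 10 members the 3 H929 DMSO libraries and the 3 OPM2 DMSO libraries did not overlap, which was also so for 78.7% of all genes tested.

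**Figure D1:**
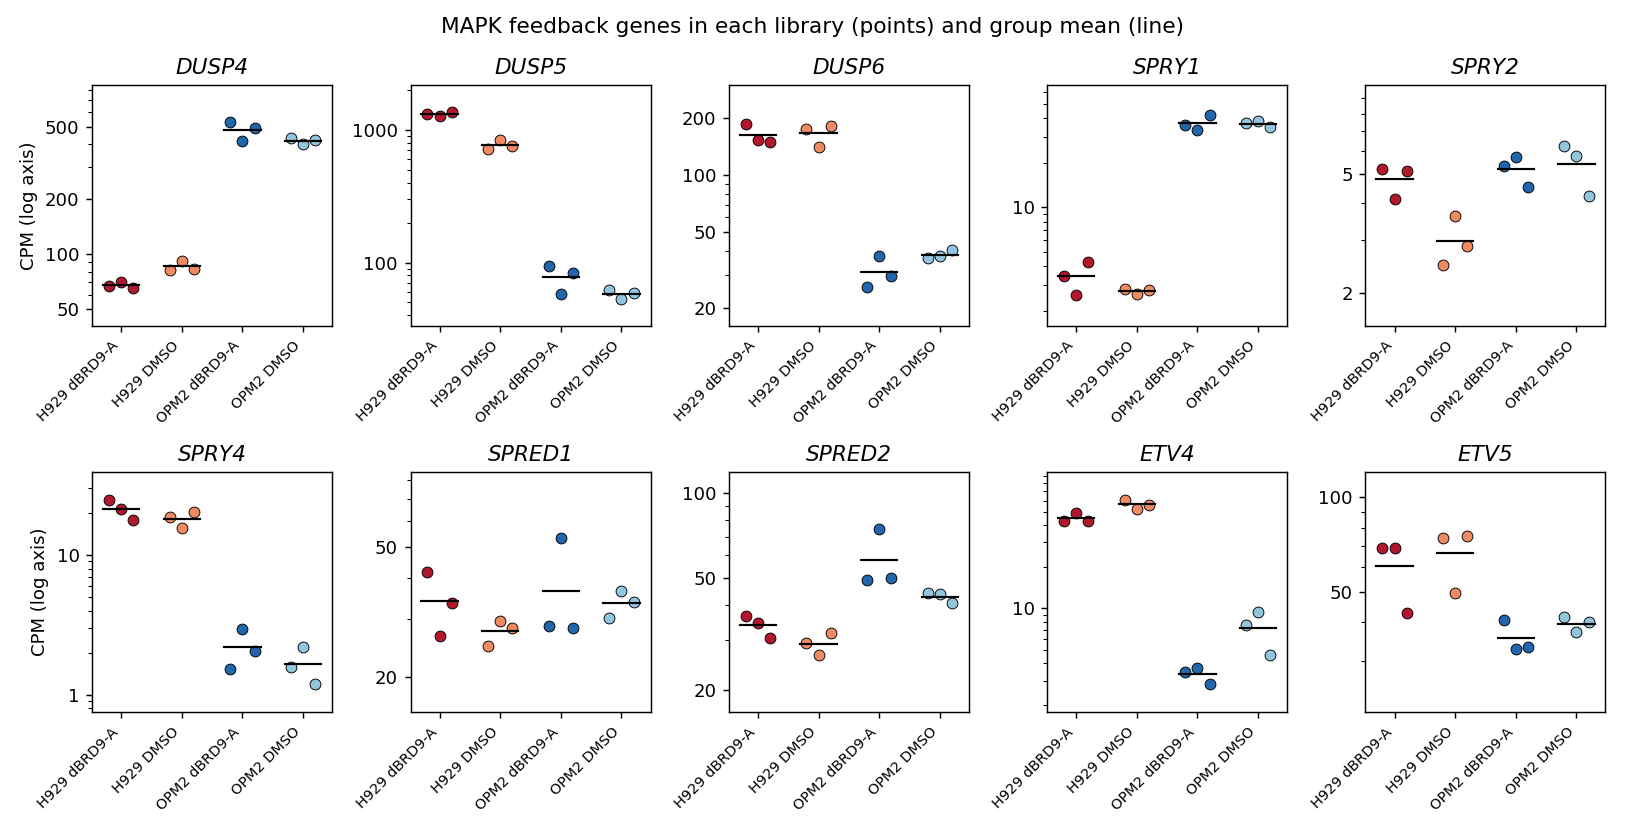
Level of each of the 10 genes in every library, in CPM on a log axis whose range differs between panels; points are the 3 libraries of a group and lines are their means. DUSP5, DUSP6, SPRY4 and ETV4 sit higher in both H929 groups, and DUSP4 and SPRY1 higher in both OPM2 groups.

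**Figure D2:**
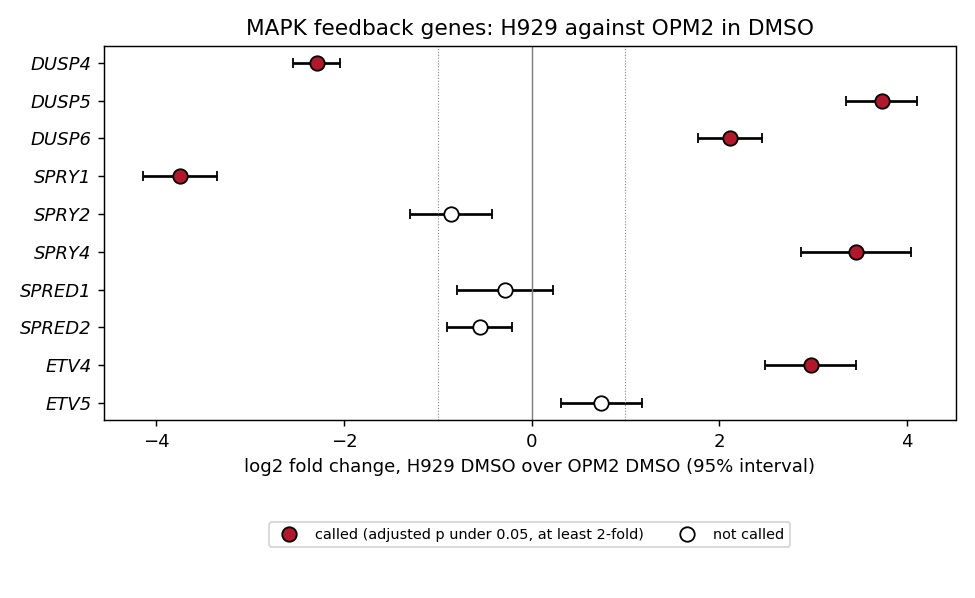
Log2 fold change of H929 DMSO over OPM2 DMSO for each gene, with 95% intervals; filled points were called and dotted lines mark a 2-fold difference. The called genes run from -3.75 for SPRY1 to 3.73 for DUSP5.

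To compare genes with each other, CPM was divided by the transcript length in kilobases. On this scale H929 with DMSO was led by DUSP5 (304.7 ± 25.2 CPM per kilobase, SD, n = 3), then DUSP6 (48.8 ± 6.42) and ETV4 (23.2 ± 1.67). ETV5 (16.2 ± 3.58) and DUSP4 (15.2 ± 1.02) overlapped each other, as did SPRED1 (3.79 ± 0.34) and SPRY4 (3.41 ± 0.46), which stood below SPRED2 (6.56 ± 0.58). SPRY2 (1.42 ± 0.27) and SPRY1 (1.04 ± 0.04) came last, and apart from the pairs named, neighbours in this order did not overlap. OPM2 with DMSO was led by DUSP4 (74.5 ± 2.96 CPM per kilobase), then DUSP5 (22.9 ± 1.65), SPRY1 (14.0 ± 0.56) and DUSP6 (11.3 ± 0.57). ETV5 (9.64 ± 0.55) and SPRED2 (9.63 ± 0.40) overlapped, SPRED1 (4.62 ± 0.44) followed, ETV4 (2.95 ± 1.005) and SPRY2 (2.57 ± 0.49) overlapped, and SPRY4 (0.31 ± 0.09) came last.

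The make-up of each family followed from this. DUSP5 was 81.0% to 85.2% of the summed per-kilobase level of the 3 phosphatases in H929 with DMSO, against 20.5% to 21.7% in OPM2 with DMSO. DUSP4 was 4.02% to 4.20% of it in H929 with DMSO, against 68.1% to 68.9% in OPM2 with DMSO. The phosphatase sum itself was 348.8 to 390.1 CPM per kilobase in H929 with DMSO, against 103.5 to 112.3 in OPM2 with DMSO. Among the 3 Sprouty genes SPRY4 made up 51.8% to 61.3% in H929 with DMSO, against 1.43% to 2.33% in OPM2 with DMSO, and SPRY1 made up 16.9% to 18.7% in H929 with DMSO, against 81.3% to 85.7% in OPM2 with DMSO. The Sprouty sum was lower in H929 with DMSO, at 5.64 to 6.24 CPM per kilobase, than in OPM2 with DMSO, at 15.7 to 17.7. ETV4 was 55.6% to 64.3% of the PEA3 pair in H929 with DMSO, against 16.1% to 30.0% in OPM2 with DMSO. SPRED1 held a similar share of the SPRED pair in the lines, 34.2% to 40.6% in H929 with DMSO and 29.6% to 33.9% in OPM2 with DMSO. These sums rest on mRNA and on 1 transcript per gene, and they describe neither protein nor activity.

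**Figure D3:**
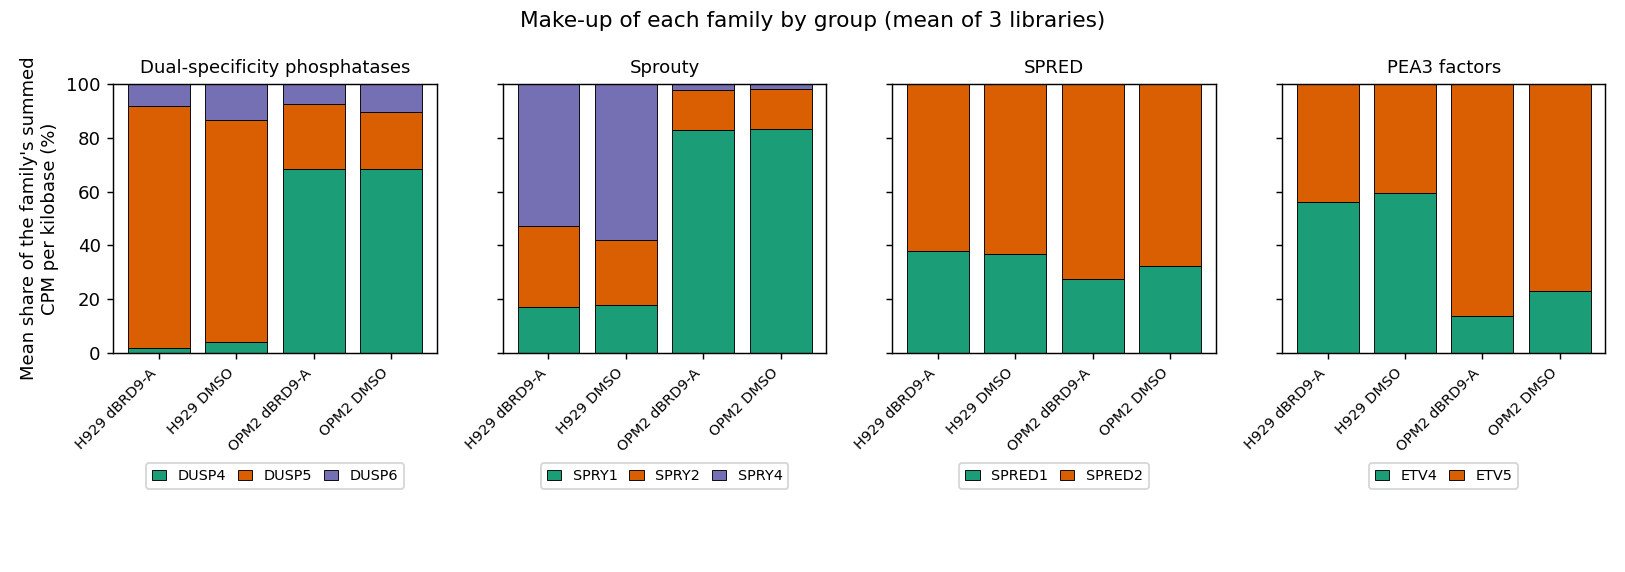
Mean share of each gene in its family's summed CPM per kilobase (percent, mean of 3 libraries) in each group. The leading phosphatase is DUSP5 in H929 and DUSP4 in OPM2, and the leading Sprouty gene is SPRY4 in H929 and SPRY1 in OPM2.

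RefSeq promoter entries (build GRCh38.p14) matched 6 of the 10 genes, with 10 entries in all. The 250 bases before the start are printed for the 3 called genes that have an entry, of which DUSP6 and SPRY4 were higher and SPRY1 lower in H929, with every GGAA or its complement TTCC, the core that ETS factors such as ETV4 and ETV5 recognise, in capitals. The windows are DUSP6 at chr12:89352502-89352751 on the minus strand, SPRY4 at chr5:142324248-142324497 on the minus strand and, for SPRY1 on the plus strand, an upstream start at chr4:123396545-123396794 and a downstream start at chr4:123398136-123398385.

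DUSP6: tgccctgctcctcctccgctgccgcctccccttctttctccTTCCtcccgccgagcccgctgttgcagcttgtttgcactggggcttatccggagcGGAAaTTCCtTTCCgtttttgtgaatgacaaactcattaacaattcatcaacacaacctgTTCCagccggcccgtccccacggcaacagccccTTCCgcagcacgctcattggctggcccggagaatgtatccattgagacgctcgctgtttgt

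SPRY4: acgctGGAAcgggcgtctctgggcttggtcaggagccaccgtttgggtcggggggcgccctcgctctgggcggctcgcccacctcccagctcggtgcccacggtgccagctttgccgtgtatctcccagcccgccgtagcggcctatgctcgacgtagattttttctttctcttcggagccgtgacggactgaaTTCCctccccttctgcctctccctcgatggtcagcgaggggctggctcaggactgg

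SPRY1, upstream start: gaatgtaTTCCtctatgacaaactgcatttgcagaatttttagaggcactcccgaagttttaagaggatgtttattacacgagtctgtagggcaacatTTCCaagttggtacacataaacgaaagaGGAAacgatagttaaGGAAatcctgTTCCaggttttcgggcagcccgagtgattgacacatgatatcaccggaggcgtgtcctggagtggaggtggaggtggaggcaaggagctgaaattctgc

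SPRY1, downstream start: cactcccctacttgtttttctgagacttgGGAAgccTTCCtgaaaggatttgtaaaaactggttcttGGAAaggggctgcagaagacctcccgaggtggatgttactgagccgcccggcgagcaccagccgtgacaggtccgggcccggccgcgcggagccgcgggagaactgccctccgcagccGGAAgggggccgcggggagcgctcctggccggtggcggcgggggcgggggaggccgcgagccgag

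DUSP6 held 6 such cores, SPRY4 held 2, and the upstream and downstream SPRY1 windows held 5 and 4. The core occurs at least once in 92.7% of the 35116 promoter windows of that length, with a median of 3 and a 95th percentile of 6, so its presence alone does not set these promoters apart. The longer ETS sequence CCGGAAG, which contains the core, was found on either strand in 8.52% of all windows and once among these 4, in the downstream SPRY1 window. The octamers TGAATGAA and TGAATGGA, which are among those that CIC binds, were found in 2.19% of all windows and in none of these 4. Other forms of the CIC site were not searched. The search therefore does not show whether these windows hold another form of the site. The DUSP6 window does hold the letters tccattga. On the other strand they read as TGAATGGA with C in place of the G that follows its opening T. Whether CIC binds there was not tested. The AP-1 sequence TGACTCA was found in 4.20% of all windows and in none of these 4. A match is a description of the letters, and the absence of a match says only that they are not in this window.

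The wider pathway, taken from lists chosen with earlier results of these data known, also differed between the lines in DMSO. NRAS, the RAS gene known to be mutated in H929, had 730.3 ± 37.4 CPM in H929 with DMSO, against 107.1 ± 4.36 CPM in OPM2 with DMSO (log2 fold change 2.77, adjusted p = 2.09e-09). FGFR3 was lower, with 85 ± 6.91 CPM in H929 with DMSO, against 2112 ± 62.5 CPM in OPM2 with DMSO (-4.63, adjusted p = 2.03e-07). CIC had 65.4 ± 4.90 CPM in H929 with DMSO, against 77.2 ± 2.18 CPM in OPM2 with DMSO, and was not called (-0.24, adjusted p = 0.528).

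The counts of the next lists are to be read against the share of all genes called, 36.3%, with 21.4% higher and 15.0% lower in H929. Of 20 genes that relay the signal between the receptor and ERK, all tested, 5 were called. Each was higher in H929 with DMSO than in OPM2 with DMSO. The median log2 fold change of the 20 was 0.22, against 0.05 over all genes. RASGRP3, a RAS activator of lymphocytes, was higher by 2.70 on the log2 scale, and KSR1, a scaffold of the cascade, by 1.93. Of 16 receptors and adaptors 12 were tested, 4 higher and 2 lower. MET, the receptor of hepatocyte growth factor, had 15.7 ± 0.88 CPM in H929 with DMSO, against 2.20 ± 0.09 CPM in OPM2 with DMSO. Of 10 ligands 6 were tested, with HBEGF, a ligand of the epidermal growth factor receptor, higher (1.17) and FGF9, a fibroblast growth factor, lower (-6.07). Of 10 transcription factors of the pathway, all tested, ETS1 alone was called, and it was lower (-2.49).

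Among 16 other feedback regulators 14 were tested, and 4 were higher and 4 lower in H929 with DMSO than in OPM2 with DMSO, where 36.3% of all genes were called. DUSP1, DUSP10, IL17RD and RASA2 were higher and DUSP2, DUSP8, DUSP16 and SPRED3 lower. DUSP16, a phosphatase of the stress-activated kinases, had 10.4 ± 1.02 CPM in H929 with DMSO, against 108.4 ± 4.57 CPM in OPM2 with DMSO (-3.38). SPRED3, the remaining SPRED gene, had 0.38 ± 0.12 CPM in H929 with DMSO, against 4.51 ± 0.35 CPM in OPM2 with DMSO (-3.58). Of 12 other genes that ERK is known to induce, all tested, 6 were higher and 1 lower, with a median of 1.11. Without OPM2 dBRD9-A replicate 2, which enters through the shared spread, 6 were higher and 2 lower. CCND1, cyclin D1, had 190.5 ± 26.0 CPM in H929 with DMSO, against 0.07 ± 0.04 CPM in OPM2 with DMSO. FOSL1, an AP-1 subunit, had 6.61 ± 1.27 CPM in H929 with DMSO, against 0.18 ± 0.04 CPM in OPM2 with DMSO.

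**Figure D4:**
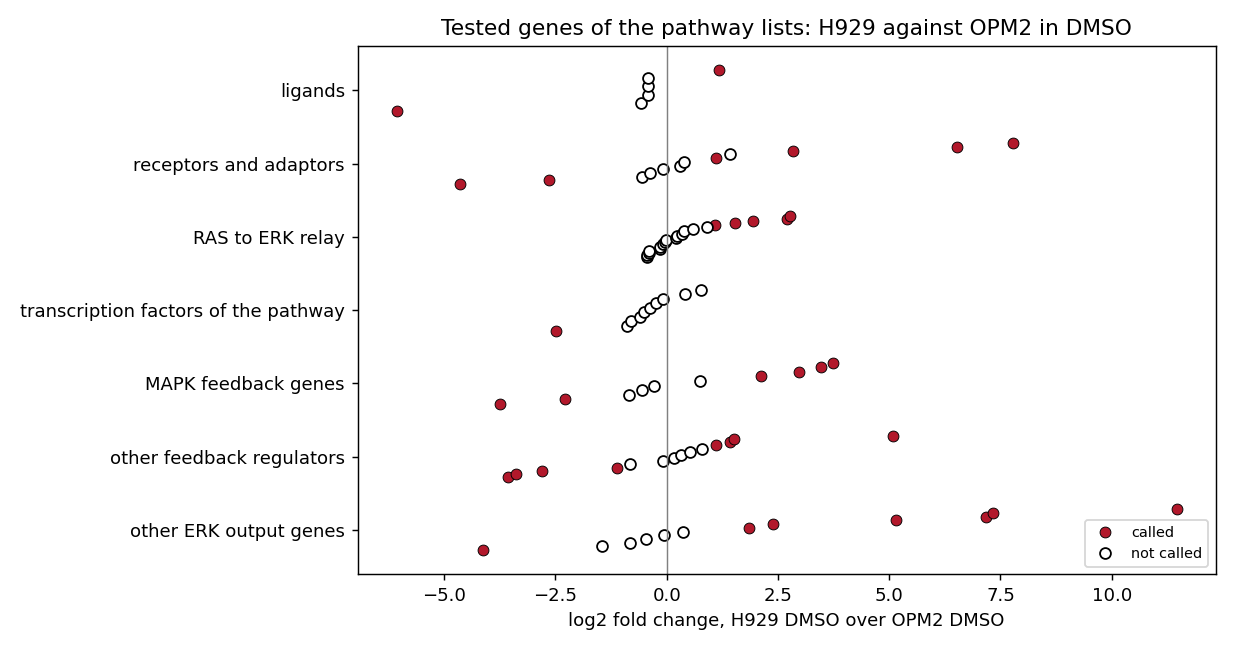
Log2 fold change of H929 DMSO over OPM2 DMSO for the tested genes of each list, 1 point per gene, filled where called. Feedback genes fall on both sides of 0, from -3.75 to 3.73, while 6 of the 7 called genes of the other ERK output list are higher in H929. Over all genes 36.3% were called, 21.4% higher and 15.0% lower. Of the ERK output list, CCND1, EGR1, FOSL1 and IER3 were near the floor in OPM2 with DMSO, at means of 0.07, 0.15, 0.18 and 0 CPM.

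The second comparison asked how dBRD9-A changed the feedback genes in OPM2. ETV4 fell, and no other member was called. It had 3.48, 3.71 and 2.82 CPM in OPM2 with dBRD9-A, against 7.59, 9.39 and 4.56 CPM in OPM2 with DMSO (log2 fold change -1.12 ± 0.22 SE, 95% interval -1.60 to -0.63, edgeR adjusted p = 0.00606). All treated libraries were below all DMSO libraries, on 88 to 235 counts per treated library. So 1 of 10 members was called, lower, against 17.4% of all genes tested, 10.1% higher and 7.34% lower. The median log2 fold change of the 10 was 0.07, against 0.03 over all genes.

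Without OPM2 dBRD9-A replicate 2, 4 of the 10 members were called in OPM2, against 31.7% of all genes. ETV4 was then at -1.20 ± 0.22 (adjusted p = 0.000995). DUSP5 had 93.6, 57.5 and 83 CPM in OPM2 with dBRD9-A, against 61.7, 53.5 and 58.9 CPM in OPM2 with DMSO, with replicate 2 lowest of the treated libraries and overlapping the DMSO libraries. Its log2 fold change was 0.43 ± 0.16 with replicate 2 (adjusted p = 0.076) and 0.59 ± 0.09 without it (adjusted p = 0.000296), and with all libraries it was called by DESeq2 (0.0243) and under the filter of 1 CPM in 3 libraries (0.0465). DUSP4 had 529.9, 418.3 and 494.9 CPM in OPM2 with dBRD9-A, against 433.2, 400.5 and 422 CPM in OPM2 with DMSO. The difference was 0.20 ± 0.11 with replicate 2 (adjusted p = 0.218) and 0.28 ± 0.08 without it (adjusted p = 0.0166). DUSP6 had 25.8, 37.5 and 29.3 CPM in OPM2 with dBRD9-A, against 36.8, 37.5 and 40.4 CPM in OPM2 with DMSO. Replicate 2 alone reached the DMSO level, and the difference was -0.31 ± 0.15 with it (adjusted p = 0.178) and -0.48 ± 0.13 without it (adjusted p = 0.00927). The phosphatases were therefore called in OPM2 in opposite directions, DUSP4 and DUSP5 up and DUSP6 down, without replicate 2 and with limma-voom and library weights.

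The SPRED genes were highest in that replicate. SPRED1 had 28.6, 53.1 and 28.1 CPM in OPM2 with dBRD9-A, against 30.2, 36.6 and 33.8 CPM in OPM2 with DMSO, and its log2 fold change was 0.12 with replicate 2 and -0.26 without it, called in neither. SPRED2 had 49, 74.4 and 49.8 CPM in OPM2 with dBRD9-A, against 43.9, 43.7 and 40.7 CPM in OPM2 with DMSO. All its treated libraries were above all DMSO libraries, and the difference was 0.43 ± 0.16 with replicate 2 (adjusted p = 0.0786) and 0.20 ± 0.10 without it (adjusted p = 0.142). SPRED2 was called with DESeq2 (adjusted p = 0.0433), with library size alone (0.0415) and without OPM2 dBRD9-A replicate 3 (0.52, adjusted p = 0.0443). SPRED1 and SPRED2 lay 0.91 and 0.59 above their mates in replicate 2 on the log2 scale, and DUSP5 had a deviation of -0.62. The transcripts of SPRED1, SPRED2 and DUSP5 hold 38.9%, 48.7% and 55.9% GC. Of the other members, SPRY4 (56.5% GC, 0.72), DUSP6 (46.7%, 0.445), ETV4 (60.8%, 0.24) and SPRY2 (45.2%, 0.22) also lay above their mates. DUSP4 (51.3%, -0.29), SPRY1 (44.8%, -0.23) and ETV5 (48.6%, -0.16) lay below. The part of GC content in any of these values was not tested. SPRED2 and ETV4 were the members with no overlap between dBRD9-A and DMSO libraries in OPM2, as was so for 37.7% of all genes.

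The Sprouty genes and ETV5 were not called in OPM2 with or without replicate 2. SPRY1 had 35.8, 33 and 41.8 CPM in OPM2 with dBRD9-A, against 36.8, 38 and 35.1 CPM in OPM2 with DMSO (0.01 ± 0.16, 95% interval -0.34 to 0.36). SPRY2 had 5.34, 5.73 and 4.53 CPM in OPM2 with dBRD9-A, against 6.24, 5.77 and 4.24 CPM in OPM2 with DMSO (-0.06 ± 0.20). SPRY4 had 1.54, 2.95 and 2.07 CPM in OPM2 with dBRD9-A, against 1.57, 2.19 and 1.19 CPM in OPM2 with DMSO. With 70 to 137 counts per treated library its interval was wide, -0.22 to 0.94. ETV5 had 40.5, 32.9 and 33.2 CPM in OPM2 with dBRD9-A, against 41.5, 37 and 40.1 CPM in OPM2 with DMSO (-0.15 ± 0.20, interval -0.59 to 0.28).

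The third comparison was the same treatment in H929. DUSP5, already the leading phosphatase there, rose further. It had 1308, 1270 and 1363 CPM in H929 with dBRD9-A, against 714.5, 839.9 and 756.7 CPM in H929 with DMSO (1.71-fold, log2 fold change 0.77 ± 0.16, edgeR adjusted p = 0.00788). The lowest treated library was well above the highest DMSO library, and the call held in all 21 alternatives. SPRY2 had 5.19, 4.14 and 5.14 CPM in H929 with dBRD9-A, against 2.48, 3.61 and 2.87 CPM in H929 with DMSO (0.69 ± 0.20, adjusted p = 0.0406). Its groups did not overlap either, but the values rest on 154 to 305 counts per library, and the call ended when any 1 of 7 libraries was left out: H929 dBRD9-A replicate 1 (adjusted p = 0.121) or 3 (0.0937), H929 DMSO replicate 1 (0.108) or 3 (0.108), OPM2 dBRD9-A replicate 1 (0.0512), or OPM2 DMSO replicate 1 (0.0551) or 2 (0.0609). In all, 2 of the 10 members were called, both higher, against 13.0% of all genes tested, 7.33% higher and 5.67% lower. The median over the members was 0.22, and -0.0019 over all genes.

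Without OPM2 dBRD9-A replicate 2, which enters this comparison through the shared spread, 4 members were called in H929, against 35.7% of all genes. The added genes were DUSP4 and SPRED2. DUSP4 had 66.9, 70.4 and 64.8 CPM in H929 with dBRD9-A, against 81.4, 92.1 and 83.1 CPM in H929 with DMSO. Every treated library was lower, and the difference was -0.34 ± 0.11 with that library in the fit (adjusted p = 0.0573) and -0.31 ± 0.07 without it (adjusted p = 0.00461). DUSP4 was also called lower with all libraries by DESeq2 (adjusted p = 0.019) and limma-voom (0.00156), and with the H929 libraries alone (0.0126). SPRED2 had 36.5, 34.5 and 30.6 CPM in H929 with dBRD9-A, against 29.3, 26.5 and 31.7 CPM in H929 with DMSO. These groups overlapped, and the difference was 0.22 ± 0.16 in the first fit (adjusted p = 0.423) and 0.25 ± 0.09 in the second (adjusted p = 0.0418).

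ETV4 had 42.6, 49.1 and 42.8 CPM in H929 with dBRD9-A, against 60.7, 52.6 and 56 CPM in H929 with DMSO. All treated libraries were lower, but the gene was not called (-0.33 ± 0.21, 95% interval -0.78 to 0.12, adjusted p = 0.34), except with the H929 libraries fitted alone (adjusted p = 0.0257). Groups without overlap were found for DUSP4, DUSP5, SPRY2 and ETV4 in H929, and for 45.5% of all genes. The remaining members overlapped. DUSP6 had 186.4, 152.3 and 148.5 CPM in H929 with dBRD9-A, against 175.4, 140.7 and 181 CPM in H929 with DMSO (-0.03 ± 0.15, interval -0.36 to 0.30). SPRY1 had 3.43, 2.54 and 4.29 CPM in H929 with dBRD9-A, against 2.81, 2.62 and 2.75 CPM in H929 with DMSO (0.33 ± 0.17, adjusted p = 0.242). SPRY4 had 24.7, 21.5 and 17.8 CPM in H929 with dBRD9-A, against 18.6, 15.5 and 20.3 CPM in H929 with DMSO (0.23 ± 0.24). In none of these 3 genes did the libraries separate treated from DMSO cells. SPRED1 had 41.8, 26.7 and 33.6 CPM in H929 with dBRD9-A, against 24.8, 29.6 and 28.1 CPM in H929 with DMSO (0.31 ± 0.23), called by limma-voom alone of the alternatives run (0.34, adjusted p = 0.0385). ETV5 had 68.7, 68.9 and 42.9 CPM in H929 with dBRD9-A, against 74, 49.3 and 75.5 CPM in H929 with DMSO (-0.14 ± 0.20).

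**Figure D5:**
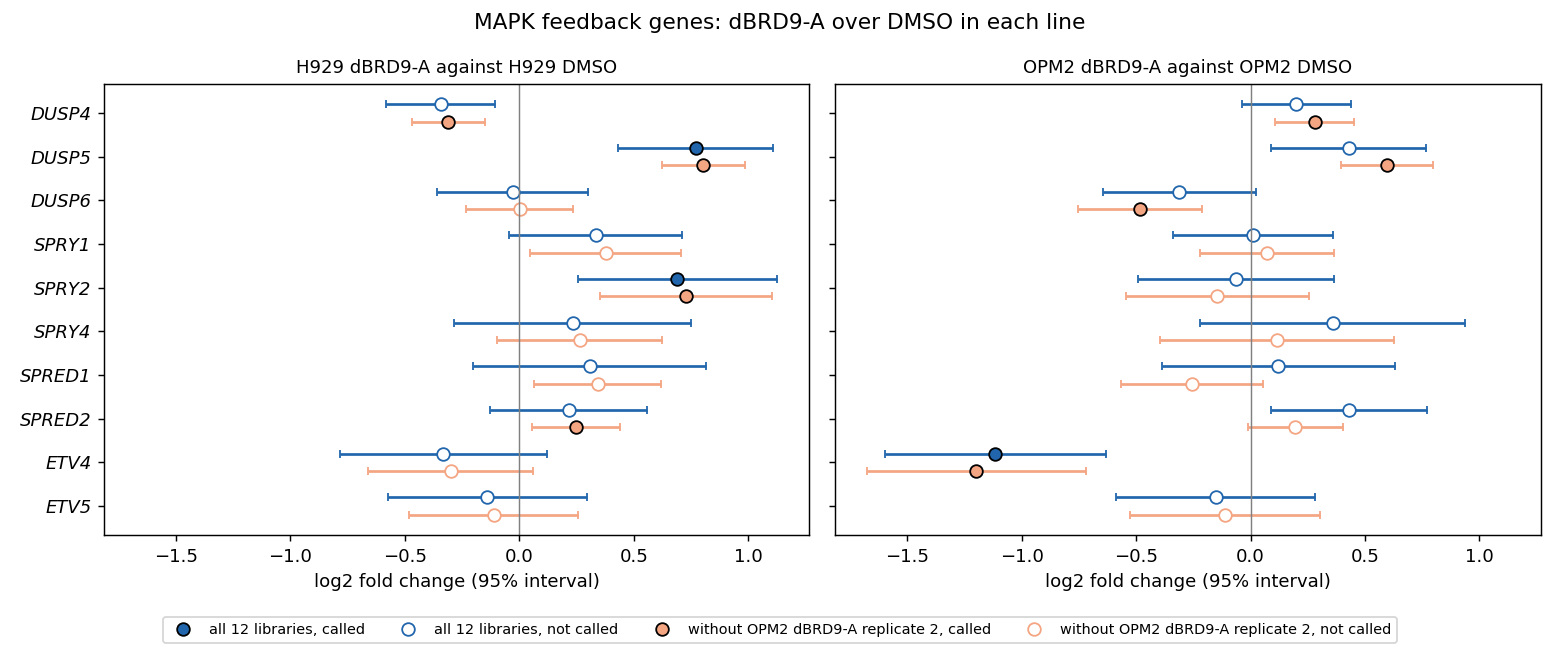
Log2 fold change of dBRD9-A over DMSO in H929 (left) and OPM2 (right) for each gene, with 95% intervals, in the fit of all 12 libraries and in the fit without OPM2 dBRD9-A replicate 2; filled points were called. DUSP5 and SPRY2 in H929 (0.77 and 0.80, and 0.69 and 0.73) and ETV4 in OPM2 (-1.12 and -1.20) were called in both fits.

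With the compound the families kept their leading genes. DUSP5 was 88.6% to 90.7% of the phosphatase sum in H929 with dBRD9-A, against 81.0% to 85.2% in H929 with DMSO, and DUSP4 was 1.94% to 2.24% with dBRD9-A, against 4.02% to 4.20% with DMSO. The phosphatase sum was 559.6 to 594.4 CPM per kilobase in H929 with dBRD9-A, against 348.8 to 390.1 in H929 with DMSO. In OPM2 DUSP4 was 67.9% to 68.8% of the sum with dBRD9-A, against 68.1% to 68.9% with DMSO. ETV4 was 12.6% to 16.0% of the PEA3 pair in OPM2 with dBRD9-A, against 16.1% to 30.0% in OPM2 with DMSO.

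The last comparison set the responses of the lines against each other, H929 minus OPM2, as a test of the difference itself. No member was called by edgeR, where 0.579% of all genes were, 0.293% higher and 0.286% lower. At an unadjusted p under 0.05 there were 3 members, DUSP4, SPRY2 and ETV4, and 8.6% of all genes. DESeq2 called 1 member, DUSP4, among 372 of all genes, and limma-voom called 2, DUSP4 and SPRY2, among 882, where edgeR called 95. DUSP4 was lower with dBRD9-A in every H929 library, and its response in H929 (-0.34) minus that in OPM2 (0.20) was -0.54 ± 0.15 (95% interval -0.88 to -0.21, adjusted p = 0.203). Without OPM2 dBRD9-A replicate 2 this difference was -0.59 ± 0.11 and was called (adjusted p = 0.007), where 3.04% of all genes were. For ETV4 the difference was 0.78 ± 0.30 (adjusted p = 0.448), so its fall in OPM2 was not shown to be larger than in H929. For SPRY2 it was 0.75 ± 0.28 (adjusted p = 0.419), and for DUSP5 0.34 ± 0.22 (interval -0.14 to 0.82, adjusted p = 0.682). These differences share their libraries with the comparisons above and are not independent of them.

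In the rest of the pathway some genes of each list changed with dBRD9-A, and the counts are to be read against the shares of all genes called, 13.0% in H929 and 17.4% in OPM2, or 35.7% in H929 and 31.7% in OPM2 without OPM2 dBRD9-A replicate 2. FGFR3 fell in both lines, to 33.8 ± 0.998 CPM in H929 with dBRD9-A, against 85 ± 6.91 CPM in H929 with DMSO (log2 fold change -1.33, adjusted p = 0.0144), and to 714.1 ± 372.4 CPM in OPM2 with dBRD9-A, against 2112 ± 62.5 CPM in OPM2 with DMSO (-1.56, adjusted p = 0.00553, and -1.22 without replicate 2). NRAS was at -0.32 in H929 and 0.17 in OPM2, and CIC at 0.13 in H929 and -0.06 in OPM2, neither of them called. Both had a call without OPM2 dBRD9-A replicate 2: NRAS was lower in H929 (-0.29, adjusted p = 0.033), and CIC stood on the other side of 0 in OPM2 (0.30, adjusted p = 0.0284). Of the 14 other feedback regulators tested, 2 rose and 1 fell in H929, and 3 rose and 2 fell in OPM2. NF1, neurofibromin, rose in H929 (0.52) and in OPM2 (1.01), and DUSP2, a nuclear phosphatase, fell in H929 (-1.33) and in OPM2 (-1.26). IL17RD, a further inhibitor of fibroblast growth factor signalling, rose in H929 (1.27), and DUSP10 (0.97) and RASA1 (0.85) rose and DUSP1 (-0.75) fell in OPM2. Without OPM2 dBRD9-A replicate 2 the list had 6 higher and 3 lower genes in H929 and 6 higher and 2 lower in OPM2, and RASA1 was at 0.49 and DUSP2 at -0.97 in OPM2, both still called.

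Of the 20 relay genes 1 rose in H929 and 3 in OPM2; without that replicate 5 rose and 1 fell in H929, and 5 rose in OPM2. RASGRP3 had 70.8 ± 8.08 CPM in H929 with dBRD9-A, against 38.8 ± 2.28 CPM in H929 with DMSO, and 29.3 ± 8.49 CPM in OPM2 with dBRD9-A, against 5.96 ± 0.84 CPM in OPM2 with DMSO. Its rise was smaller in H929, with a difference of responses of -1.43 (adjusted p = 0.0359). Of the 12 receptors and adaptors tested 2 rose and 1 fell in H929 (4 and 2 without that replicate), and 3 rose and 2 fell in OPM2 (3 and 2 without it). Those that rose in OPM2 were FGFR2, ERBB3 and KIT. Their means were 0.01, 0.05 and 0.16 CPM in OPM2 with DMSO, and 0.08, 0.46 and 1.09 CPM in OPM2 with dBRD9-A. Without that replicate FGFR2 lost its call (edgeR adjusted p = 0.065) and ERBB2 gained one (0.014). MET fell in OPM2, to 0.91 ± 0.12 CPM with dBRD9-A, against 2.20 ± 0.09 CPM with DMSO (-1.29), and had 19.1 ± 1.64 CPM in H929 with dBRD9-A, against 15.7 ± 0.88 CPM in H929 with DMSO, with a called difference of responses (1.58, adjusted p = 0.00347). Of the 6 ligands tested 3 rose and 1 fell in H929, and 2 rose and 1 fell in OPM2. TGFA, a ligand of the epidermal growth factor receptor, rose in H929 (1.41) and in OPM2 (1.35). The gene of that receptor, EGFR, had too few counts to be tested. Its mean was 0.05 CPM in H929 with dBRD9-A and 0 CPM in each of the other groups. HBEGF rose in H929 (1.13) and was at -0.35 in OPM2, with a called difference of responses (1.48, adjusted p = 0.00443).

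Of the 10 transcription factors of the pathway 2 rose in H929, and 1 rose and 2 fell in OPM2. Without OPM2 dBRD9-A replicate 2 the counts were 2 higher and 2 lower in H929, and 3 higher and 3 lower in OPM2. ETS1 had 49.3 ± 10.9 CPM in H929 with dBRD9-A, against 30.7 ± 4.43 CPM in H929 with DMSO, and 114.3 ± 10.9 CPM in OPM2 with dBRD9-A, against 172.1 ± 12.1 CPM in OPM2 with DMSO. It rose in H929 (0.69) and fell in OPM2 (-0.59), and the difference was called (1.28, adjusted p = 0.0308). Of the 12 other ERK output genes 1 rose and 4 fell in H929, with a median of -0.40, and 4 rose and 2 fell in OPM2, with a median of 0.88. MYC and CDC25A, a cell cycle phosphatase, fell in both lines. PHLDA1 rose in OPM2 (1.24), and FOSL1 (-1.17) and CCND1 (-0.66) fell in H929. The other genes that rose in OPM2, EPHA2, EMP1 and FOS, were low. Their means were 0.04, 0.16 and 0.94 CPM in OPM2 with DMSO, and 0.94, 0.48 and 1.99 CPM in OPM2 with dBRD9-A. The OPM2 median also includes genes near the floor in that line, such as CCND1 and IER3. Without OPM2 dBRD9-A replicate 2 the list had 3 higher and 6 lower genes in H929, with a median of -0.37, and 4 higher and 2 lower in OPM2, with a median of 0.53. By edgeR no gene of that list had a called difference of responses with all libraries, and without that replicate PHLDA1 had one (-1.52, adjusted p = 0.00938).

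Across the 12 libraries the genes most like each member were found by the root mean square difference of log2 CPM, centred on each gene's own mean, among 11457 genes. This is a description over 4 groups, and for most members it is dominated by the difference between the lines. MID1IP1 (0.144), PAXIP1-AS1 (0.178) and JUN (0.179), which encodes an AP-1 subunit, were nearest to DUSP4, whose own spread was 1.29. AK1 (0.199), CD53 (0.238) and CECR1 (0.273) were nearest to DUSP5. ELOVL5 (0.172) was nearest to DUSP6 and CALML4 (0.275) to SPRY4. For SPRY1 the nearest gene was DUSP16 (0.209), one of the other feedback regulators. IFFO2 (0.258) and MGC39584 (0.29) were nearest to ETV4, followed by MET (0.366). MARCKS (0.162), EFR3A (0.137), FAM21A (0.079) and RMI2 (0.167) were nearest to SPRY2, SPRED1, SPRED2 and ETV5, members with a spread of 0.296 to 0.435. Among the members themselves DUSP5 and SPRY4 were 0.537 apart and DUSP4 and SPRY1 0.606 apart, while DUSP5 and SPRY1 were 3.77 apart.

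No member shared near-identical counts (within 5% in all 12 libraries) with another gene. ETV4 overlaps DHX8 on the opposite strand, and ETV5 overlaps DGKG on the same strand. The library kit keeps strand, but no source used here gives the strand setting of the counting. It is therefore not known whether reads from the stretch that ETV4 and DHX8 share were kept apart. For ETV5 and DGKG strand would not separate such reads.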

How the data were processed

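RNA-seq files of 12 libraries were used, and the other 18 of the 30 samples listed were not analysed here. Libraries came from a stranded poly(A) kit, per the labels' protocols. STAR, featureCounts and the builds GRCh37 and hg19 are named in the submitters' processing notes. The deposited counts are whole read counts per RefSeq transcript (51780 transcripts), and the aligner settings and strand setting are not given in the sources used here. The FPKM values the authors deposited served only to recover transcript length, and the deposited TPM values were not used in any test. Because reference and files differ in build, no coordinates come from the files.

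The transcript with the highest mean count stood for each symbol. Genes were filtered with filterByExpr, which left 16408 genes, all 10 members among them, and normalized by TMM. The test was that of edgeR 4.0.16 in R 4.3.3 (quasi-likelihood test, 1 mean per group, spread shared by all 12 libraries, 8 residual degrees of freedom) and adjusted by the Benjamini-Hochberg method, with calls at an adjusted p under 0.05 and, between the lines in DMSO, a difference of 2-fold or more. CPM values use TMM-scaled library sizes. Depth limits the low genes, which rest on as few as 70 counts in a library. The members and lists were chosen with earlier results of these data known. All 10 members are named. Of the other lists, called genes, FGFR3, NRAS, CIC and EGFR are named, and per member the genes with the smallest root mean square difference. A gene of the relay list is not reported here and was left out of its counts. From the called genes of the lists, those in the text were chosen after their values were seen.

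Alternatives were RLE factors, no scaling beyond library size, DESeq2 1.42.0, limma-voom (limma 3.58.1) with library weights, leaving out 1 library at a time, no low-count filter or one of 1 CPM in 3 libraries, a block for the replicate number, the sum over transcripts, the libraries of a comparison alone, and, between the lines, no fold threshold. The fit was tested on simulated data with the same spread for every gene and library, and with changes larger than those of the members with dBRD9-A. No simulated library stood apart, so that test does not bear on small responses or on OPM2 dBRD9-A replicate 2. GC content came from GENCODE transcripts matched for 94.8% of the genes tested.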

Additional observations from a re-analysis of the deposited data

How the results depend on the processing

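Of 840 refits of a member under an alternative, 767 kept direction and call, 27 gained a call, 9 lost one and 37 changed sign. Every sign change concerned a value that was not called with all 12 libraries, and the cause was not tested. All 6 calls between the lines in DMSO held under every alternative run, with 6 to 7 members called when 1 library was left out. DUSP5 in H929 also held under every one, and ETV4 in OPM2 under all but the fit of the OPM2 libraries alone (adjusted p = 0.0716).

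In OPM2, where 1 member was called, the count was 2 with library size alone and with the 1 CPM filter, 3 with DESeq2, 4 with limma-voom and 0 with the OPM2 libraries alone. It ranged from 1 to 4 over the fits without 1 library. In H929, where 2 were called, it was 3 with DESeq2, 4 with limma-voom and with the H929 libraries alone and 1 to 4 without 1 library. For the difference of responses, where none was called, DESeq2 gave 1, limma-voom 2 and the fits without 1 library 0 to 1. Values that changed sign in OPM2 were SPRED1, at -0.20 with limma-voom and -0.26 to 0.27 without 1 library, SPRY1, at -0.0036 without the filter, -0.0003 with the OPM2 libraries alone and -0.0955 to 0.0723 without 1 library, and SPRY2, at -0.2174 to 0.0428 without 1 library. In H929 DUSP6 was at 0.0104 with RLE factors and with DESeq2, 0.0639 with library size alone, 0.0108 with the 1 CPM filter and -0.1122 to 0.0728 without 1 library, and ETV5 was at -0.293 to 0.0795 without 1 library. For the difference of responses SPRY4 was at 0.0516 with limma-voom and -0.39 to 0.15 without 1 library, SPRED2 at -0.3168 to 0.0516 without 1 library, and ETV5 at -0.26 with limma-voom and -0.12 to 0.26 without 1 library.

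The replicate numbers did not pair the libraries (correlations of deviations of -0.139 to 0.06 between same-numbered libraries). With the replicate number as a block, 1 member was called in H929, since SPRY2 was lost (adjusted p = 0.062), and SPRY1 in OPM2 was at -0.0023; the block changed no other call of a member. It left 33 of all genes called for the difference of responses, against 95.

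Over all genes the count in OPM2 was 2857, 7243 with limma-voom, 871 with the OPM2 libraries alone and 1381 to 5277 without 1 library. In H929 it was 2134, 5910 with limma-voom, 4970 alone and 812 to 5946 without 1 library. Between the lines it was 5960, and 9872 without the fold threshold. For the difference of responses it was 95, 372 with DESeq2, 882 with limma-voom and 35 to 507 without 1 library. Library size alone raised the share of called genes that were higher to 69.4% in OPM2 (57.8% with TMM) and 71.8% in H929 (56.4% with TMM), and moved the members' log2 fold changes between the lines by a median of -0.123. Depth limits SPRY4 and ETV4 in OPM2 and SPRY1 and SPRY2 in H929.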
